A study of Homo sapiens with 8 samples.

Results

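Chaperones fold proteins, and the quality-control machinery of the endoplasmic reticulum (ER) retains, repairs or discards those that fail to fold. The genes described here are chaperones, their co-chaperones and the ER folding and disposal factors, chosen by gene symbol from a fixed pattern of family names (for example HSP, DNAJ, PDIA, CCT, FKBP, PPIA to PPIH, DERL, SSR and TXNDC). Of 3656 genes and 7615 pairs of poly(A) sites that the deposited tables listed, 58 genes with 153 pairs matched. GENCODE release 44 holds 164 protein-coding genes whose symbols match, and 57 of these were listed. A gene is listed only if at least a pair of its 3′ ends was measured, so most of the family carried no measurement of site choice. The symbol rule also took in SEL1L3, a paralogue of the ER disposal factor SEL1L, and PPIAL4G, a copy of the cyclophilin gene PPIA.

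Most human genes have several poly(A) sites. Cleavage at a proximal site gives a shorter transcript, either with a shorter 3′ UTR or, inside an intron, with a truncated coding sequence, and cleavage at a distal site gives the longer one. HNRNPC is a nuclear protein that binds runs of U, and PABPC4 is a poly(A)-binding protein. Induction of many chaperone and ER folding genes by unfolded protein is among the best-known stress responses.

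The 3′ ends were sequenced in 8 samples, 2 replicates in each of 4 groups, of the triple-negative breast cancer cell line MDA-MB-231. All cells carried a lentiviral dCas9-KRAB, a transcriptional repressor steered by guide RNA (CRISPR interference), and a pair of guides. Both were control guides (labelled sgCTRL) in the control. HNRNPC knockdown (KD) had an HNRNPC guide plus a control guide, PABPC4 KD a PABPC4 guide plus a control guide, and double KD both targeting guides. The deposited value, logAPAR, is a natural log fold change of proximal over distal usage, KD against control, and falls below 0 when usage moves toward the distal site. No values per library were in the tables, every p-value covers counting error alone, and pairs of HNRNPC or PABPC4 numbered 0, so neither replicate spread nor depletion of the targets could be read from them. The PABPC4 KD table was identified by elimination, because its name mixes the abbreviations of both targets.

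The 153 pairs used 154 sites, 79 named by a transcript and 75 by a position in a build that the tables do not name. Such positions cannot be read as hg38 coordinates. On hg38, HSP90AA1 spans chr14:102080742-102139699, which does not include its site named chr14:102550807. Of the transcript-named ends, 68 could be placed on hg38 with the transcript version of release 44. These comprised 35 that close the gene's canonical transcript, 6 of other transcripts at that same position, 15 elsewhere in its 3′ UTR, 7 in coding sequence, 4 beyond the end and 1 in an intron. The main poly(A) signal AATAAA lay within 40 nt before 57.4% of the 68 ends, against 53.4% of 4220 placed ends over all genes, and the variant ATTAAA before 17.6% against 15.7%. At least 5 U in a row, the kind of sequence that HNRNPC binds, stood in the 100 nt before the end at 39.7% of member ends and 34.5% of all. A-rich sequence (6 A in a row or 12 A among 20 nt) followed 2.94% of member ends, those of CRELD2 and ERP44, against 9.55% of all. Oligo(dT) primers can start on such genomic A stretches as they do on a poly(A) tail.

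The last 30 bases before 4 placed ends of pairs past the p threshold of 0.01 are printed below, 5′ to 3′ on the gene's strand and taken from hg38, because they show how unlike these ends are. Capitals mark AATAAA or ATTAAA.

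HSP90AA1, distal end (ENST00000334701.11, chr14:102081049-102081078, minus strand): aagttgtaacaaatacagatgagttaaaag

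PPIA, distal end (ENST00000468812.6, chr7:44803088-44803117, plus strand): tggaAATAAAcatcaaacatcttttcatta

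PPIF, distal end (ENST00000225174.8, chr10:79355305-79355334, plus strand): ataagccaATTAAAcctttttaatAATAAA

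TXNDC15, proximal end (ENST00000505174.1, chr5:134899870-134899899, plus strand): taagcaaatgcaaaaatattcaatagatgc

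The PPIA and PPIF ends closed canonical transcripts and carried a signal. The TXNDC15 end lay in the 3′ UTR 1736 nt before the canonical end and the HSP90AA1 end 307 nt before it, and neither window held a signal. The CRELD2 end lay in intron 8 of a canonical transcript of 10 exons, had no signal within 40 nt and was followed by A-rich sequence.

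In HNRNPC KD, 3 member pairs shifted toward the distal site and 1 toward the proximal site, of 121 pairs in 50 genes. That is 2.48% and 0.826% of member pairs, beside 1.14% and 0.938% of all 5861 pairs, or 3.31% against 2.08% in either direction. DERL1, a membrane protein of the channel through which misfolded proteins leave the ER, PPIA, the cytosolic cyclophilin A, and CRELD2, an ER protein induced by ER stress, shifted to the distal site. HSP90AA1, the inducible cytosolic Hsp90, shifted to a proximal site. At an adjusted p of 0.05, DERL1 alone remained (0.826% of member pairs, 0.427% of all).

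In PABPC4 KD, 2 pairs shifted each way among 124 pairs of 50 genes, 1.61% in each direction beside 0.336% of all 5953 pairs to the distal and 0.42% to the proximal site (3.23% against 0.756% in total). DERL1 and PPIF, the mitochondrial cyclophilin D, shifted to the distal site, HSP90AA1 and PPIAL4G to the proximal site. Among the members 0 pairs passed an adjusted p of 0.05 in APAlog's fit, which 0.0168% of all pairs did, and 8 (6.45%) passed an unadjusted p of 0.05, beside 4.03% of all pairs.

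In double KD, 3 pairs shifted to the distal site and 2 to the proximal site among 124 pairs of all 58 genes. The member shares were 2.42% and 1.61%, beside 2.48% and 1.86% of all 6461 pairs, and in either direction 4.03% against 4.33%. CRELD2, DERL1 and SSR3, a subunit of the translocon-associated complex at the ER entry channel, shifted to the distal site, and PPIAL4G and the thioredoxin-domain protein TXNDC15 to the proximal site. CRELD2, PPIAL4G and DERL1 also passed an adjusted p of 0.05, 2.42% of member pairs and 2.23% of all. At p 0.05, 12 member pairs (9.92%, against 6.77% of all) passed in HNRNPC KD and 14 (11.3%, against 9.12%) in double KD. At p 0.001 the members past it numbered 2, 0 and 3 in HNRNPC KD, PABPC4 KD and double KD, where 0.819%, 0.118% and 2.17% of all pairs passed. The double KD share of member pairs past p 0.01 was near that of all pairs, and the counts of the other comparisons are too small for their shares to be read as particular to these genes.

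**Figure D1:**
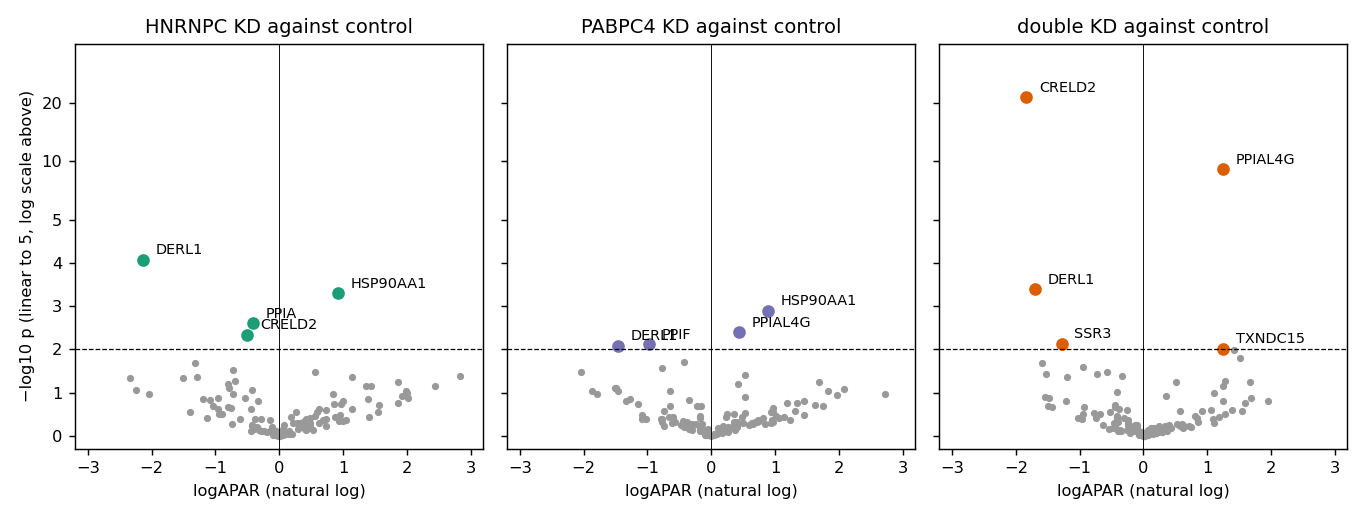
Each point is a member site pair, with logAPAR against control (natural log) on the horizontal axis and −log10 of the deposited p-value on the vertical axis, which is linear to 5 and logarithmic above. Coloured, named points lie past p 0.01 (dashed line): 4 after HNRNPC KD, 4 after PABPC4 KD and 5 after double KD, with CRELD2 and PPIAL4G standing far above the others in double KD.

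CRELD2 gave the smallest p of all members. Its intronic end against the distal end ENST00000328268.8 had a logAPAR of -0.50 ± 0.176 (Wald SE) after HNRNPC KD, -0.426 ± 0.183 after PABPC4 KD and -1.83 ± 0.190 after double KD. The proximal-to-distal ratio was therefore 0.607, 0.653 and 0.160 times that of the control. The deposited p-values were 0.00462, 0.0199 and 4.93e-22, with an adjusted p of 1.59e-18 in double KD. Double KD differed from PABPC4 KD by -1.41 ± 0.264 (p 9.60e-08, adjusted p 8.29e-05) and from HNRNPC KD by -1.33 ± 0.259 (p 2.71e-07, adjusted p 0.000233), by a z test with the sum of both variances as an upper bound. Both single knockdowns were thus on the same side as the double KD but each fell short of it. Beyond what both single KDs add up to, double KD lay a further -0.907 ± 0.317 (p 0.00425), which did not pass adjustment over all pairs (0.586). The gene has only these 2 sites in the tables, so it cannot be said whether the intronic end lost reads or the distal end gained them. A-rich sequence follows the intronic end, and the part of priming on it in this result was not tested. Each of the 2 ends must have had at least 27.7 reads in double KD and in control to give an error this small.

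PPIAL4G moved the opposite way. Its site at chr1:143767144 against ENST00000419275.2 had a logAPAR of 0.0827 ± 0.145 after HNRNPC KD (p 0.568), 0.428 ± 0.148 after PABPC4 KD (p 0.00396) and 1.24 ± 0.203 after double KD (p 8.62e-10, adjusted p 2.93e-07), a 3.47-fold higher proximal-to-distal ratio. Double KD exceeded PABPC4 KD by 0.817 ± 0.251 (p 0.00115, adjusted p 0.139) and HNRNPC KD by 1.16 ± 0.249 (p 3.17e-06, adjusted p 0.00182). The version of this transcript in release 44 aligned to PPIA with 91.7% identity over 747 positions, so reads may be shared between the copies and the gene to which they belong is uncertain. That stretch is bases 3 to 748 of the 2237-nt PPIA transcript. The distal end of the PPIA pair closes that transcript and lies outside the stretch, so the distal ends of the copies are not matching sites. PPIA itself behaved otherwise: its logAPAR was -0.418 ± 0.138 after HNRNPC KD (p 0.00249), -0.163 ± 0.130 after PABPC4 KD (p 0.209) and -0.0288 ± 0.127 after double KD (p 0.820). These are among the smallest errors of the list, and the double KD interval ran from -0.278 to 0.220. PPIF had -0.686 ± 0.355, -0.975 ± 0.365 and -0.721 ± 0.345 in HNRNPC KD, PABPC4 KD and double KD (p 0.0531, 0.00752 and 0.0367), on the distal side each time. The other cyclophilins, PPID and PPIG, had no pair past the threshold.

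DERL1 was the only member past p 0.01 in all 3 KDs. The first of its ends, 1016 nt before the second within the 3′ UTR on hg38, had a logAPAR of -2.13 ± 0.542 after HNRNPC KD (p 8.47e-05, adjusted p 0.0236), -1.46 ± 0.552 after PABPC4 KD (p 0.00830) and -1.70 ± 0.480 after double KD (p 0.000408, adjusted p 0.0220). Double KD did not pass the test against either single KD (-0.241 ± 0.731 against PABPC4 KD and 0.433 ± 0.724 against HNRNPC KD), and these errors would hide large differences. The 3 tables share the same control, so these values are not independent of each other. The errors require only 3.40, 3.28 and 4.34 reads or more at each end. Of the other ER disposal genes, DERL2, HERPUD2 and OS9 had no pair past the threshold, with logAPAR from -0.234 to 0.274 where listed.

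**Figure D2:**
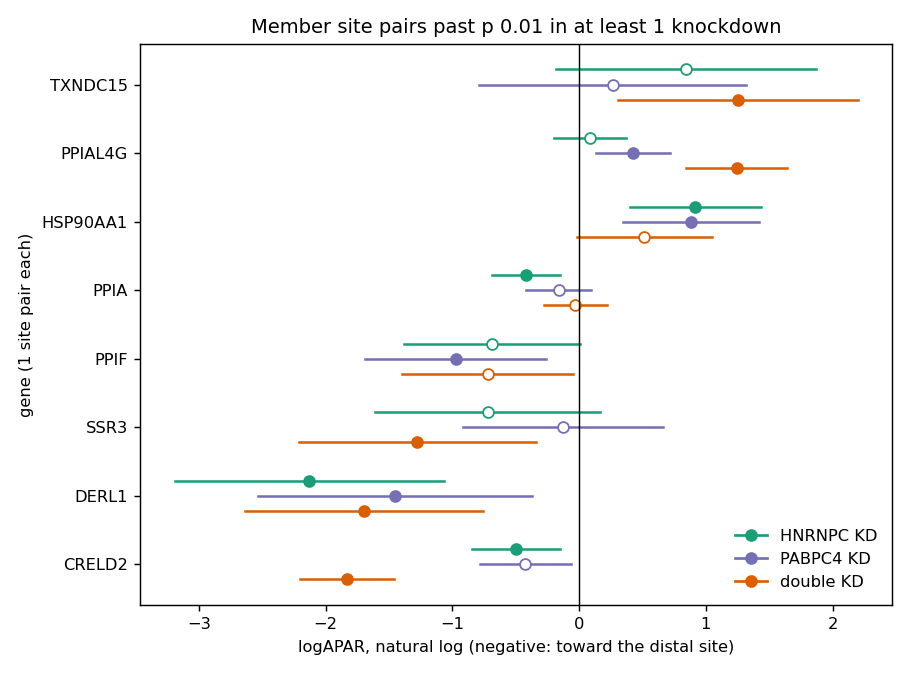
The 8 member pairs past p 0.01 in at least 1 knockdown, with logAPAR (natural log) as points and its 95% Wald interval as lines for HNRNPC KD, PABPC4 KD and double KD. Filled points lie past p 0.01. CRELD2 and PPIAL4G lie farther from 0 in double KD than in either single KD, DERL1 is negative in all 3, and HSP90AA1 is filled in both single KDs and open in double KD.

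HSP90AA1 has 4 sites in the tables, which allowed the reads at each to be reconstructed from the errors, both replicates summed. The end ENST00000334701.11 held nearly all of them: 2378 reads in control, 3034 after HNRNPC KD, 2356 after PABPC4 KD and 3594 after double KD. The upstream site at chr14:102550807 held 19.2, 61.1, 45.8 and 48.45 reads in the same order, lowest in the control. A further site at chr14:102551686 held 38.0, 58.7, 41.7 and 61.8 reads, and chr14:102547809 between 1.68 and 3.42 in each group. Site chr14:102550807 against the main end accordingly had a logAPAR of 0.916 ± 0.263 after HNRNPC KD (p 0.000499, adjusted p 0.0915), 0.881 ± 0.274 after PABPC4 KD (p 0.00128) and 0.515 ± 0.271 after double KD (p 0.0578). Even after HNRNPC KD this site held about 61.1 reads beside 3034, so the shift concerned a minor isoform. The double KD value was lower than the sum of the single KDs by 1.28 on the logAPAR scale (-1.28 ± 0.467, p 0.00595, adjusted p 0.717, and p 0.000130, adjusted p 0.0406, with the error taken from the reconstructed reads). The control does not cancel in that departure, and its 19.2 reads at this site were the lowest of the groups. HSP90B1, the ER Hsp90 (GRP94), had -1.08 ± 0.753, -0.738 ± 0.665 and -1.53 ± 0.732 (p 0.150, 0.267 and 0.0367).

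SSR3 had 4 sites as well. Its main end, ENST00000265044.6, held 98.7 reads in control, 124 after HNRNPC KD, 109 after PABPC4 KD and 176 after double KD. Site chr3:156258878 held 14.2, 8.66, 13.9 and 7.06 reads, highest in control and PABPC4 KD. Its logAPAR against the main end was -0.723 ± 0.452 after HNRNPC KD (p 0.109), -0.126 ± 0.402 after PABPC4 KD (p 0.754) and -1.28 ± 0.477 after double KD (p 0.00744, adjusted p 0.189). The end ENST00000464138.1 against the same main end had -0.794 ± 0.452, -0.128 ± 0.395 and -0.945 ± 0.425 (p 0.0792, 0.745 and 0.0262). The fourth site, chr3:156260438, held 7.76, 9.87, 6.385 and 17.7 reads, highest in double KD. Its logAPAR in double KD was 0.245 against the main end (p 0.585) and, on the proximal side, 1.52 against chr3:156258878 (p 0.0157, adjusted p 0.317). Against the main end in double KD, the other upstream sites were thus negative, while chr3:156260438 was not separated from 0. SSR1, another subunit of that complex, had -0.432 ± 0.253, -0.353 ± 0.245 and -0.407 ± 0.244 for its pair of 3′ ends 6427 nt apart (p 0.0872, 0.150 and 0.0953).

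TXNDC15 had a logAPAR of 0.840 ± 0.524 after HNRNPC KD (p 0.109), 0.264 ± 0.538 after PABPC4 KD (p 0.624) and 1.25 ± 0.484 after double KD (p 0.00963, adjusted p 0.225). Among the disulphide isomerases, which form and reshuffle disulphide bonds in the ER, PDIA4 had 0.996 ± 0.707, 0.0402 ± 0.766 and 1.28 ± 0.663 (p 0.159, 0.958 and 0.0540), and the better measured PDIA6 had -0.337 ± 0.237, 0.234 ± 0.258 and -0.256 ± 0.222. ERP44, TXNDC5 and TXNDC12 had no pair past the threshold.

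The J-domain and Hsp70 families, which include ER proteins, gave no pair past p 0.01. All 15 J-domain proteins, which hand substrates to Hsp70, and all 8 genes with Hsp70 or Hsp110 symbols had none in any table that listed them. Classes were set by symbol alone, and whether the gene listed as HSPA14 encodes an Hsp70 was not checked. The J-domain pairs numbered 44, 51 and 47 in HNRNPC KD, PABPC4 KD and double KD, and the Hsp70 and Hsp110 pairs 15, 8 and 10. Of all pairs 2.08%, 0.756% and 4.33% passed. With so few pairs, the absence of calls cannot be read as particular to these families. HSPA4, an Hsp110 that releases nucleotide from Hsp70, had 0.262 ± 0.243, 0.427 ± 0.229 and 0.350 ± 0.224 (p 0.281, 0.0628 and 0.118) for 3′ ends 1972 nt apart. HSPA5 (BiP), the main ER Hsp70, had 0.424 ± 1.27, 2.08 ± 1.19 and 1.4 ± 1.21, with standard errors above 1 on the natural log scale. DNAJC5, the cysteine string protein, was the best measured J-domain gene, at 0.0529 ± 0.144, -0.0519 ± 0.138 and 0.0214 ± 0.142. DNAJC18, a J-domain protein of the ER membrane, came nearest to the threshold, with 0.419 ± 0.522, 0.527 ± 0.512 and 1.42 ± 0.552 (p 0.422, 0.304 and 0.0102). Its distal site at chr5:138746463 held 120 reads in control, 99.7 after HNRNPC KD, 98.9 after PABPC4 KD and 33.2 after double KD, while the proximal site chr5:138749742, 3279 nt upstream, held 7.04, 8.90, 9.82 and 8.05. In double KD the distal reads were thus far below those of the other groups, and the proximal reads were not.

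Of the CCT ring, which folds actin and tubulin, CCT4, CCT5 and CCT6A were listed. CCT6A had -0.446 ± 0.374, 0.0489 ± 0.358 and -0.306 ± 0.348 (p 0.233, 0.891 and 0.380). BAG1, which opens the nucleotide pocket of Hsp70, had 0.567 ± 0.601, -0.0581 ± 0.606 and 1.10 ± 0.678 (p 0.346, 0.924 and 0.103), and the prolyl isomerase FKBP14 of the ER had 1.38 ± 0.935, 0.266 ± 1.11 and 1.67 ± 0.882 (p 0.139, 0.811 and 0.0582). UGGT1, the glucosyltransferase that tags unfolded glycoproteins for another round with the lectin chaperones, had 0.0381 ± 0.263, -0.145 ± 0.237 and -0.563 ± 0.264 (p 0.885, 0.540 and 0.0328). Its most used site at chr2:128926665, 25579 nt upstream of another at chr2:128952244, held 243 reads in control, 184 after HNRNPC KD, 232 after PABPC4 KD and 111 after double KD. The end of its canonical transcript held 39.97, 29.1, 44.02 and 31.9, so the upstream site carried most reads in every group. Calnexin (CANX), a lectin chaperone, had -0.532 ± 0.353, -0.648 ± 0.384 and -0.443 ± 0.354.

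**Figure D3:**
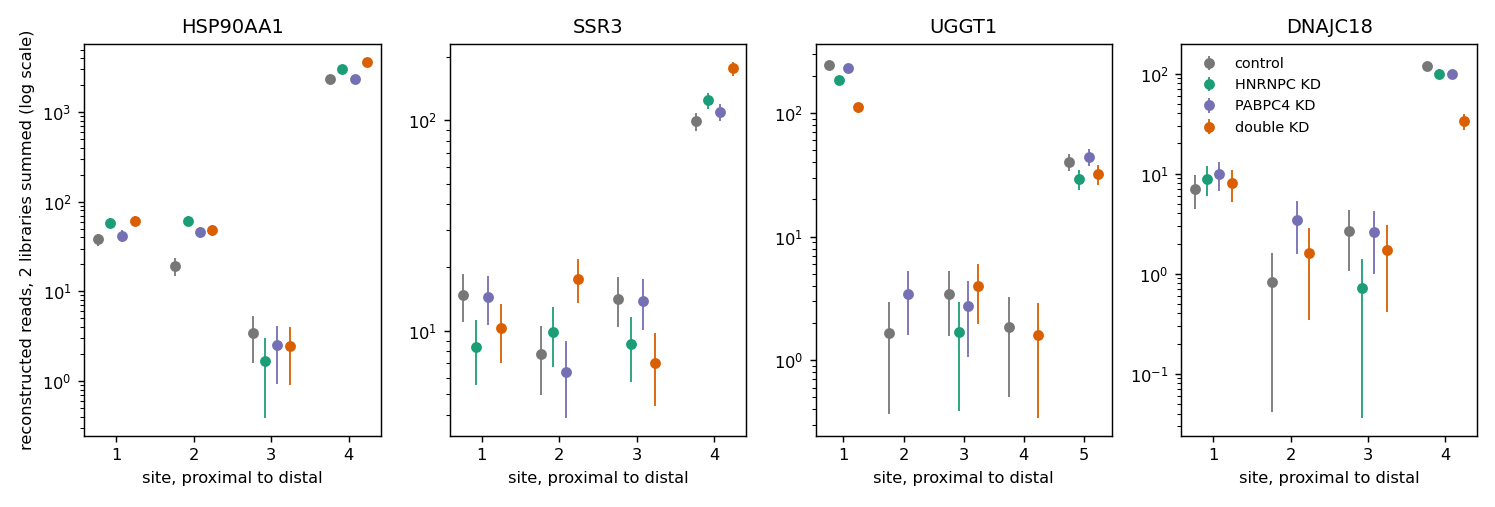
Reconstructed reads per site (both replicates summed, log axis) in the 4 groups for HSP90AA1, SSR3, UGGT1 and DNAJC18, sites numbered from proximal to distal, with bars of 1 square root of the reads (counting error only; a missing point was not listed). HSP90AA1 site 2 rests at 19.2 reads in control and above 45 in the KDs, the first UGGT1 site at 243 in control and 111 in double KD, and the last DNAJC18 site at 120 and 33.2.

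Over the 12 role classes no class lay wholly to 1 side in every table, apart from the 2 SSR genes, whose lead pairs were negative in all 3. With 1 pair a gene, the one of smallest error, the median logAPAR of members was 0.0171 after HNRNPC KD, -0.0589 after PABPC4 KD and 0.0379 after double KD, beside 0.0120, -0.00133 and -0.00604 over all genes. Negative values were found for 25 of 50, 27 of 50 and 28 of 58 member genes while 49.3%, 50.2% and 50.2% of all genes were negative. Members thus lay on both sides of 0 in similar numbers. The errors were wide: at the median Wald SE of member pairs (0.762, 0.826 and 0.744), an absolute logAPAR of 1.96, 2.13 and 1.92 was needed to reach p 0.01, so moderate shifts were not detectable at most pairs.

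**Figure D4:**
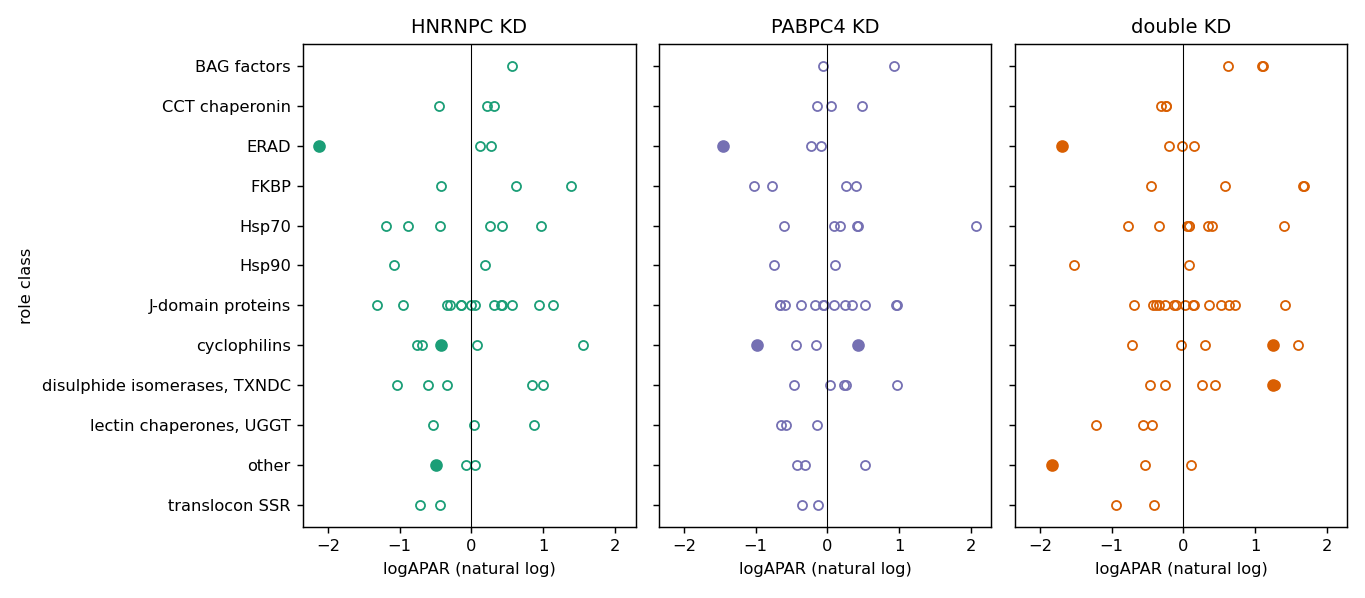
logAPAR (natural log) of 1 pair per member gene, the one of smallest error, by role class in each KD. Filled points lie past p 0.01. Most classes lie on both sides of 0, and the SSR genes are negative in each KD. The pairs past p 0.01 of HSP90AA1 (single KDs) and SSR3 (double KD) are not drawn, because another pair of the gene had a smaller error there.

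Differences between knockdowns were few. Double KD against PABPC4 KD, which shows the effect of HNRNPC loss in PABPC4-depleted cells, passed p 0.01 at 2 of 107 member pairs (1.87%, against 1.72% of all pairs), and double KD against HNRNPC KD at 2 of 104 (1.92%, against 1.43%). Both times the pairs were those of CRELD2 and PPIAL4G. The departure from the sum of the single KDs passed at 2 of 96 pairs (2.08%, against 1.04%), those of CRELD2 and HSP90AA1. At p 0.05 the 3 counts were 2, 3 and 6 (4.38%, 2.96% and 3.37% of all pairs passed), and at an adjusted p of 0.05 they were 1, 2 and 0 (0.482%, 0.426% and 0.0639% of all).

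Total reads over the sites of a gene could be compared at 10 member genes with 50 or more control reads, beside 503 such genes in all. These totals are sums of normalised reads over the sites with reconstructed reads in every group, so sites missing from a group are left out. In bulk samples fewer expressing cells and less RNA per cell cannot be told apart. On the log2 scale against control, DNAJC18 stood at -1.59 in double KD (95% counting interval -2.09 to -1.10), at percentile 0.994 of all genes, and UGGT1 at -0.966 (-1.25 to -0.679), at percentile 8.15. HSP90AA1 stood at 0.605 (0.531 to 0.678), SSR3 at 0.641 (0.330 to 0.953) and DNAJA1, a partner of Hsp70, at 0.704 (0.472 to 0.936), percentiles 91.7, 93.2 and 95.2. In HNRNPC KD, HSP90AA1, DNAJA1 and CCT4 stood at 0.372, 0.372 and 0.394, percentiles 92.0, 91.8 and 93.0, and in PABPC4 KD the first of these stood at 0.0047. DNAJC5 stood at 0.329 in PABPC4 KD (0.172 to 0.486), percentile 93.6, the only one of the 10 outside the 10 to 90 band there. These totals were not tested, since spread between replicates is unknown.

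**Figure D5:**
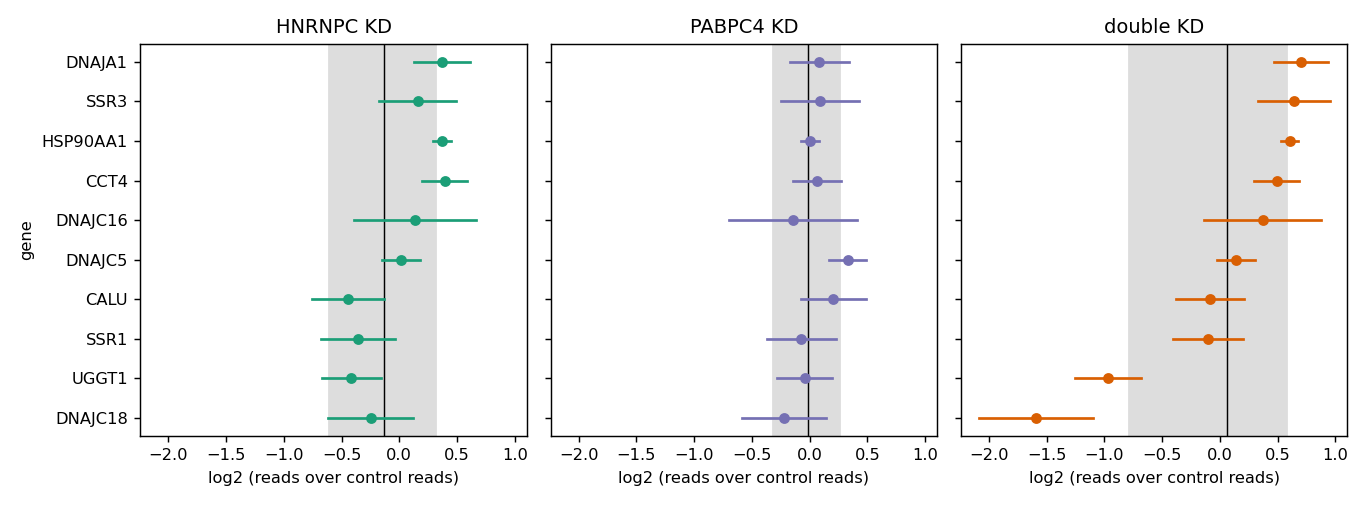
log2 of total reads over control, at sites with reconstructed reads in every group, for 10 member genes in each KD, with 95% counting intervals. The line and grey band give the median and the 10th to 90th percentile of 503 genes; DNAJC18 and UGGT1 lie below the band in double KD, and DNAJA1, SSR3 and HSP90AA1 above it.

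Other genes of protein quality control, drawn from a list of 99 that the symbol rule does not cover, were listed for 42. In HNRNPC KD 0 of their 101 pairs shifted to the distal and 3 to the proximal site (1.14% and 0.938% of all pairs), namely pairs of TMEM33, QSOX1, an oxidase that makes disulphides, and ATF6, a sensor of ER stress, with logAPAR of 2.67, 0.835 and 1.69. In PABPC4 KD 1 of 94 pairs shifted to the distal and 0 to the proximal site (0.336% and 0.42% of all), the former that of UBXN6, a cofactor of the segregase p97, at -0.652. In double KD 2 of 109 pairs shifted to the distal and 4 to the proximal site (2.48% and 1.86% of all), and 4 of these 6 were pairs of CLPB, a mitochondrial disaggregase, that all share 1 site. The other 2 were those of ST13, an Hsp70 partner, at 1.23, and of TMEM33 at 1.72.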

How the data were processed

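RNA 3′ ends of 8 samples (4 groups of 2 replicates) were sequenced by the authors with QuantSeq REV, which primes on poly(A) with oligo(dT). Per the labels, processing used UMI-tools, Salmon 0.14.1 and hg38; per the study's methods, Salmon quantified distinct Gencode transcript ends and APAlog, a multinomial logistic regression, compared groups. The deposited logAPAR values are natural log fold changes of proximal over distal usage, each with the deposited p-value and q-value (Benjamini-Hochberg). Columns of values per library numbered 0, and depth per library is unknown. These comparison columns are the only measurements and were used as such, so no exact test over samples can be made and every p rests on counted reads.

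From them, Wald standard errors were recovered as logAPAR over the normal quantile of p. At genes with 3 or more sites, reads per site and group were solved from the errors (831 of 1142 genes, 16 of 22 member genes, median misfit 9.74e-06; the solver was tested on simulated data), assuming counting error only, and with 2 sites only a lower bound followed. Differences between tables used summed variances, two-sided, with Benjamini-Hochberg adjustment over all pairs with a value. With errors from reconstructed reads, the adjustment ran only over pairs that had them. Transcript ends were placed on hg38 with GENCODE 44 where the version was the same (4220 of 4787), and positions in the unnamed build were not converted. Genes named by rule were members past p 0.01 in any comparison and the smallest double KD p of each role class. Values of some other members were added without a fixed rule. Members and lists were chosen with earlier results of these data known. Alternatives were adjusted p 0.05, p 0.001 and 0.05, the outermost sites, shared pairs, limits on absolute logAPAR (5) and standard error (0.5), errors from reconstructed reads, and, added after seeing the data, omission of ends followed by A-rich sequence and of PPIAL4G. Python 3.11.15, pandas 2.3.3, NumPy 2.4.6 and SciPy 1.17.1 were used. The sequence at the placed CRELD2 end is not reported here.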

Additional observations from a re-analysis of the deposited data

Results flagged for a closer look

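2 member pairs stood out because the HNRNPC KD effect differed with and without PABPC4 KD, by the z test of double KD against both single KDs added up, at an unadjusted p below 0.01. At CRELD2 the departure was -0.907 ± 0.317 (p 0.00425, adjusted p 0.586), the double KD lying farther toward the distal site than the sum. At HSP90AA1, for site chr14:102550807 against the main end, it was -1.28 ± 0.467 (p 0.00595, adjusted p 0.717), the double KD lying closer to the control than the sum. Neither passed adjustment over all 4692 pairs with the summed variances. With errors from the reconstructed reads the adjusted p at HSP90AA1 was 0.0406, and at CRELD2, which has only 2 sites, no such error is obtained. That 0.0406 was adjusted only over pairs with reconstructed reads, not over all 4692.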

How the results depend on the processing

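Of 48 alternative values, 30 stayed within 1.5 times the count or within the interval of the median and 18 did not. At an adjusted p of 0.05, members past the threshold numbered 1 in HNRNPC KD, 0 in PABPC4 KD, 3 in double KD, 1 for double KD minus PABPC4 KD and 0 for the departure, against 4, 4, 5, 2 and 2. Of all pairs, 0.427%, 0.0168%, 2.23%, 0.482% and 0.0639% passed that adjusted threshold, in the same order. At p 0.001 they were 2, 0 and 3 in the 3 tables, and at p 0.05 they were 12, 8 and 14, and 6 for the departure, where 0.819%, 0.118% and 2.17% of all pairs passed p 0.001, and 6.77%, 4.03% and 9.12% passed p 0.05 (3.37% for the departure). With only the outermost sites of a gene set against each other, the departure passed at 1 of 36 pairs, and the PABPC4 KD median was 0.208. With a standard error of 0.5 or less the double KD median was -0.248, over 26 genes. Errors from reconstructed reads are lacking for 2-site genes such as CRELD2 and PPIAL4G, so adjustment with such errors ran over fewer pairs. With errors from reconstructed reads, 1 of 73 member pairs passed for double KD minus PABPC4 KD, 0 of 70 for double KD minus HNRNPC KD and 1 of 66 for the departure. The first was a pair of SSR3 (1.69 ± 0.653, p 0.00947, adjusted p 0.197), named after its value was seen. Without ends followed by A-rich sequence the counts in the 3 tables were 3, 4 and 4 of 119, 123 and 122 pairs. Without PPIAL4G they were 4, 3 and 4 of 120, 123 and 123. Only 68 placed ends of the 154 sites could be searched for A-rich sequence, so unplaced sites were not checked. In HNRNPC KD and double KD, the pair past the threshold that the A-rich omission removed was that of CRELD2. For the outermost sites, the errors from reconstructed reads and these omissions, the share of all pairs past the threshold was not computed. These counts therefore cannot be set against all pairs. No paired analysis was possible because values per library are not in the tables, and for the same reason no replicate could be left out. At the 63 member sites with reconstructed reads the control median was 7.76 reads, which limits what could be detected there. Sites of genes with 2 sites are not in that median.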
